A study of Oryza sativa with 20 samples.

Results

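The 150 genes described here were those whose transcript level increased most in the lamina joint (LJ) while decreasing most in the blade, when the last of 5 stages (S5) was set against the first (S1). Each gene was given the smaller of its LJ increase and its blade decrease, taken on log2(FPKM + 1) from the means of 2 libraries, and the 150 highest scores were kept out of 37829 rice gene IDs. FPKM gives fragments relative to the length of the transcript and the size of the library. The genes were thus chosen by the levels in the S1 and S5 libraries, and values that use those libraries are given as description without a test. The libraries of S2, S3 and S4 took no part in the choice, and all tests below compare these alone, although S2 and S4 lie next to the stages that were used. The estimate of spread behind the tests came from all 20 libraries, those of S1 and S5 included.

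The study sequenced mRNA of rice (Oryza sativa) seedlings that were grown in water without further treatment, and took its tissue out of their first complete leaf. The groups were LJ at S1, S2, S3, S4 and S5 and blade at S1, S2, S3, S4 and S5, with 2 libraries each, 20 in all. Tissue was cut on days 4, 5, 6, 7 and 9 after germination, and the labels do not give the day of each stage, the cultivar or whether replicate libraries stand for different plants. The p-values thus measure the spread between libraries, which may be technical, and because RNA came from whole cut pieces, fewer cells of a type and less RNA per cell cannot be told apart.

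The lamina joint is the hinge between the leaf blade and the sheath that wraps the stem. Its cells first divide and expand and later build strengthened walls, and unequal growth of its upper and lower sides bends the blade outwards and sets the leaf angle. In a grass leaf the blade matures from its tip downwards, ahead of the joint and sheath, and both parts go through wall loosening, cellulose deposition and lignification as they mature. The files give IDs without names. A name is used here where a symbol and ID known to belong together were also placed on the same chromosome, at about the same place in gene order, by the RefSeq annotation (assembly ASM3414082v1), which gave a name to 6 of the 150 genes. Names of 4 of these (SALT, EXPA4, EXPB11 and COMT1) were looked up after the values had been seen.

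FPKM totals over rice gene IDs lay between 860684 and 1079325 per library, and the number of reads behind them is unknown. Of the 37829 IDs, 26403 were tested because 2 or more libraries had them at 1 FPKM or above, and all 150 genes were among them. Replicate libraries correlated across tested genes at 0.914 (blade S4) to 0.983 (LJ S1). LG1, a regulator that marks the boundary of blade and sheath, had the higher group mean in LJ at all 5 stages, with single libraries at 3.34 to 24.4 FPKM in LJ and 1.35 to 4.24 FPKM in blade. The transcripts of the shoot meristem genes OSH1, OSH15, OSH71 and OSH6 summed to at most 1.14 FPKM in any LJ library and at most 0.124 FPKM in any blade library of S2, S3 and S4. At the stages that chose the 150 genes they summed to 30.4 and 8.18 FPKM in LJ S1, against 0.780 and 0.473 FPKM in blade S1, and to 5.81 and 3.59 FPKM in LJ S5, against 0.528 and 0.312 FPKM in blade S5, and their part in the choice was not tested.

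The 150 scores ran between 1.53 and 4.56 on the log2 scale, with a median of 1.98. The S5 minus S1 difference had a median of 2.38 in LJ (1.53 to 5.99) and of -2.67 in blade (-6.73 to -1.53), against medians of 0.09 in LJ and -0.18 in blade over all tested genes. The smaller change was the LJ increase in 82 genes and the blade decrease in 68. At the edge of the choice, OS03G0850900, OS01G0799500, OS03G0245700, OS05G0192100 and OS06G0643700 were the last kept, with scores of 1.541, 1.538, 1.532, 1.531 and 1.528. The next genes, which were left out, were OS04G0689500, OS07G0197100, OS10G0518000, OS03G0273800 and OS11G0546500, with scores of 1.527, 1.518, 1.517, 1.510 and 1.509. The choice thus ends in a continuous run of scores and not at a gap.

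Most of the 150 genes were well expressed at some stage. Their mean over the 20 libraries ran between 1.90 and 651.8 FPKM with a median of 31.5. Of them, 128 averaged 10 FPKM or more (85.3%, against 42.5% of all tested genes). The rule itself favours expressed genes, since a score of 1.53 needs a mean log2(FPKM + 1) of at least 1.53 in LJ S5 and blade S1. Each reached 1 FPKM in at least 11 libraries. Both LJ S1 libraries were under 1 FPKM in 58 genes (38.7%, against 20.3% of all tested genes), and both blade S5 libraries in 41 (27.3%, against 22.7%). For these the log2(FPKM + 1) scale understates the size of a change.

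Between the 2 end points the course was not a steady rise in LJ and fall in blade. On the log2(FPKM + 1) scale the median level of the 150 genes in LJ was 1.23 at S1, 1.81 at S2, 5.34 at S3, 4.60 at S4 and 3.98 at S5. In blade it was 4.71 at S1, 5.23 at S2, 6.30 at S3, 3.17 at S4 and 1.65 at S5. The blade level thus increased up to S3 before it dropped, and the LJ level was highest at S3 and lower afterwards. Over all tested genes the group medians stayed between 2.21 and 2.86.

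**Figure D1:**
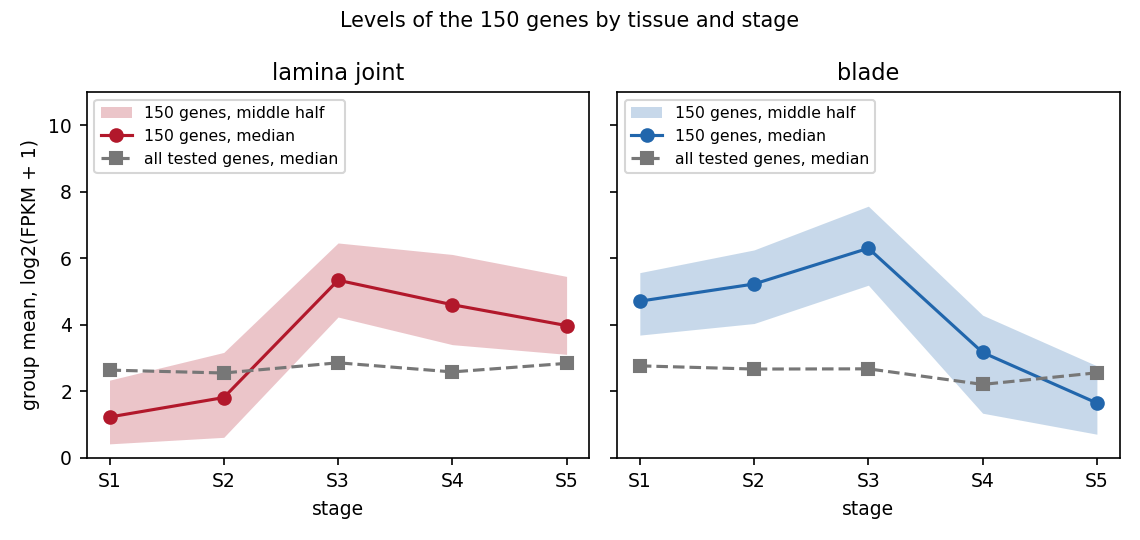
Group means of the 150 genes on log2(FPKM + 1) by stage in LJ (left) and blade (right). Circles joined by lines are the medians over the 150 genes, the bands are their interquartile range, and squares joined by dashed lines are the medians over all tested genes. The median was highest at S3 in both tissues, at 5.34 in LJ and 6.30 in blade.

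Stage by stage, the largest steps lay on either side of S3. The median step to S3 in LJ was 3.10 relative to S2 (0.17 over all tested genes), and the median step to S4 in blade was -2.89 relative to S3 (-0.25 over all tested genes). In LJ the group mean was highest at S3 in 87 genes (58%, against 19.1% of all tested genes), at S4 in 46 (30.7%, against 13.4%) and at S5 in 17 (11.3%, against 33.8%). LJ S5 was below LJ S3 in 122 (81.3%, against 51.0%). In blade the group mean was highest at S3 in 124 genes (82.7%, against 15.7%) and at S2 in 11 (7.33%, against 8.10%). It was highest at S1 in 10 (6.67%, against 33.6%) and at S4 in 5 (3.33%, against 9.15%). Both tissues were highest at S3 in 74 genes (49.3%), against 8.62% of all tested genes. The stage of the highest LJ mean was later than that of the blade in 72 genes (48%, against 24.4% of all tested genes), the same in 78 (52%, against 67.3%) and earlier in 0 (against 8.35%), where the rule itself leaves no gene that is highest at S1 in LJ or at S5 in blade.

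Set 1 stage apart, LJ S3 minus blade S2 had a median of 0.29 over the 150 genes and 0.12 over all tested genes, and LJ S4 minus blade S3 one of -1.48 over the 150 genes and -0.03 over all tested genes. For LJ S3 and blade S2, 113 of the 150 genes (75.3%) lay within 1 on the log2 scale, against 94.5% of all tested genes. At equal stage S3, 75 of the 150 (50%) lay within 1, against 81.2% of all tested genes.

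At equal stage, the order of the tissues turned between S2 and S4. The median of LJ minus blade was -2.99 at S1, -2.97 at S2, -0.82 at S3, 1.56 at S4 and 2.28 at S5, against -0.03, -0.02, 0.17, 0.23 and 0.15 over all tested genes at the same stages. The LJ mean was above the blade mean without a break up to S5 beginning at S1 in 3 genes (2%, against 22.8% of all tested genes). The lead began at S3 in 34 (22.7%, against 13.5%), at S4 in 99 (66%, against 16.7%) and at S5 in 12 (8%, against 8.61%). The 3 genes that were higher in LJ throughout were OS06G0653000, OS03G0237250 and OS03G0676300. In 2 genes, OS01G0221400 and OS05G0353500, the LJ mean was not above the blade mean at S5, since the rule asks for changes within each tissue and not for a higher level in LJ.

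**Figure D2:**
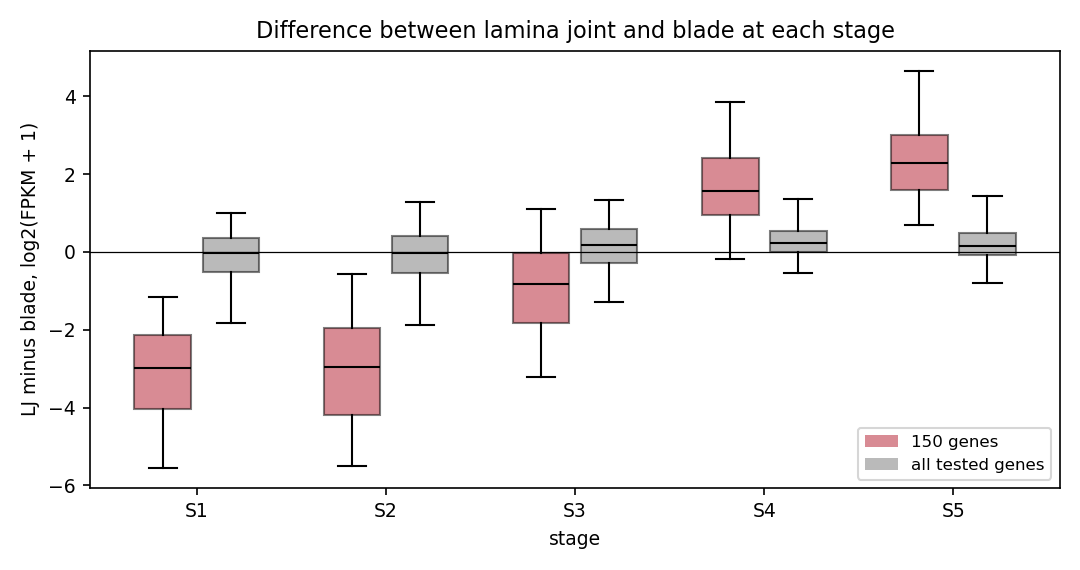
LJ minus blade on log2(FPKM + 1) at each stage for the 150 genes (left box of each pair) and all tested genes (right box). Boxes span the interquartile range, the line is the median and whiskers reach the 5th and 95th percentiles; the median of the 150 genes lies at -2.97 at S2 and 1.56 at S4.

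For the tests, all 20 libraries entered 1 limma fit, and calls were made where the p adjusted by Benjamini-Hochberg over the 26403 tested genes was under 0.05. At S2, 132 of the 150 genes (88%) were lower in LJ than in blade and 0 were higher (0 also at an unadjusted p under 0.05). Among all tested genes 12.4% were lower and 10.5% higher. The 3 genes furthest below were OS06G0148200, OS09G0426800 and OS03G0804200, at -6.50, -6.42 and -6.16 on the log2 scale. The 18 genes without a call at S2 included SALT, LAZY1 and EXPA4, which are described below. One blade library stands apart here: in blade S2 replicate 1 the 150 genes had a median 1.01 above replicate 2 on the log2 scale, where all tested genes differed by a median of 0.0036. Without that library 104 genes were called lower.

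At S3 the picture was mixed, with 51 of the 150 genes lower in LJ (34%, against 5.77% of all tested genes) and 6 higher (4%, against 11.2%). The 6 were SALT, OS03G0237250, OS08G0564700, OS02G0189300, OS04G0531100 and OS11G0497350, with differences of 3.22, 1.798, 1.59, 1.21, 1.10 and 1.08. When each LJ library was paired with the blade library that had its stage and replicate number, 12 genes were higher in LJ (of all tested genes 24.6% were in that fit). The counts rest on single libraries: 1 or 2 of the 6 remained called higher when any 1 of the 4 libraries of S3 was left out, and those of the 51 that remained called lower were 19 without LJ S3 replicate 2, 27 without blade S3 replicate 1 and 30 without blade S3 replicate 2.

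At S4, 81 of the 150 genes (54%) were higher in LJ than in blade, against 6.7% of all tested genes. Replicates lay further apart at S4 than in the other groups. The fit shares 1 spread per gene over all groups, so p-values of comparisons with S4 may be too small. None of the 150 was lower in limma (0 at an unadjusted p under 0.05), and 0.473% of all tested genes were. The largest differences were those of OS06G0653000, OS03G0237250 and OS03G0676300, at 5.33, 4.61 and 4.23. The smallest were those of OS01G0221400, COMT1 and OS05G0568800, at -0.73, -0.67 and -0.61, without a call. Leaving out blade S4 replicate 2 left 37 of these 81 calls and leaving out LJ S4 replicate 2 left 43, and the count was 0 (87 at an unadjusted p) in a fit of the 4 S4 libraries alone, in which 0 of all tested genes were called. Of the 150 genes, 66 were both lower in LJ at S2 and higher in LJ at S4 (44%, against 1.34% of all tested genes), and 42 of these (63.6%) had no call at S3, 22 (33.3%) were still lower at S3 and 2 (3.03%) were already higher. Of the 355 tested genes with both calls, 73.2% had no call at S3, 21.7% were lower and 5.07% higher. Among all genes called at S4, 93.4% were higher in LJ, a share of 83.5% after upper quartile scaling and 68.2% after quantile normalization, while the called members of the 150 were all higher in LJ under both.

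Within a tissue, S4 was compared with S2. In LJ 126 of the 150 genes rose (84%, against 28.4% of all tested genes), with a median change of 2.57, and 1 fell (0.667%, against 31% of all tested genes). In blade 103 fell (68.7%, against 32.9% of all tested genes), with a median change of -1.93, and 3 rose (2%, against 14.6% of all tested genes). The gene that fell in LJ was OS04G0450701, and this call was lost without LJ S4 replicate 1 (adjusted p = 0.0531). The 3 that rose in blade were OS01G0878900, OS01G0257100 and OS10G0534400, where 9 genes were called without blade S2 replicate 1 and 1 without blade S2 replicate 2. A rise in LJ together with a fall in blade was called in 81 genes (54%, against 1.46% of all tested genes), a rise in both tissues in 3 (2%, against 13.4%) and a fall in both in 1 (0.667%, against 23.5%).

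The change in LJ exceeded that in blade, when the difference of the changes was itself tested, in 139 of the 150 genes (92.7%, against 11.2% of all tested genes). In 0 genes was it smaller in limma (0 at an unadjusted p under 0.05), against 2.27% of all tested genes. The difference had a median of 4.35 over the 150 genes and of 0.27 over all tested genes. It was largest in OS06G0148200, OS03G0804200 and OS08G0478000, at 9.42, 8.86 and 8.31, and smallest in OS06G0299200, OS05G0192100 and OS06G0193300, at 1.24, 1.30 and 1.81, without a call. The count stayed between 127 and 143 when any 1 of the 8 libraries of S2 and S4 was left out.

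**Figure D3:**
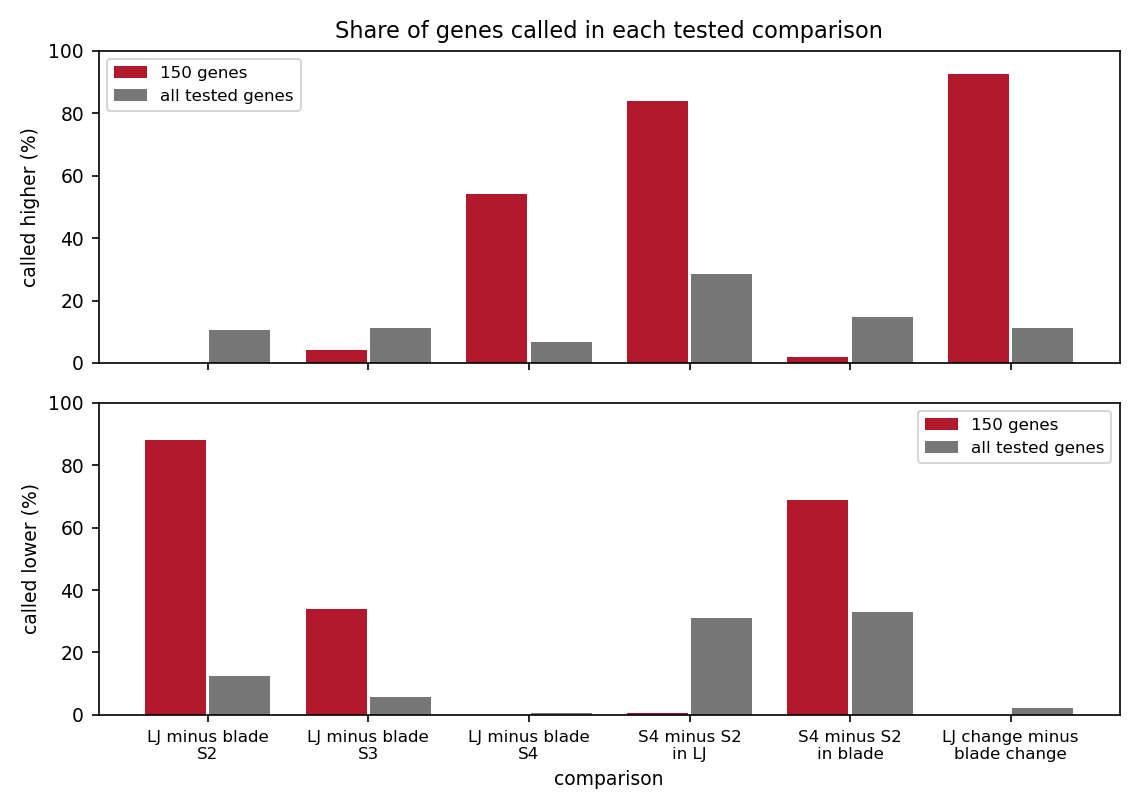
Share of genes called higher (top) and lower (bottom) in each of the 6 comparisons of S2, S3 and S4 libraries, in percent, for the 150 genes (left bar of each pair) and for all tested genes (right bar). The difference of the changes was called higher in 92.7% of the 150 genes and in 11.2% of all tested genes.

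Among the named genes, LAZY1 (OS11G0490600) acts in shoot gravitropism and in rice is known for its effect on tiller angle. In LJ its libraries held 3.72 and 7.21 FPKM at S1, 8.96 and 12.002 at S2, 28.2 and 17.97 at S3, 66.4 and 91.3 at S4 and 49.9 and 50.98 at S5. The blade libraries held 4.52 and 10.2 FPKM at S1, 17.8 and 10.5 at S2, 36.7 and 20.1 at S3, 28.5 and 5.498 at S4 and 0 and 0.0599 at S5. The tissues overlapped at S1, S2 and S3, and at S4 both LJ libraries were above both blade libraries, which on the log2 scale differed more between themselves than the LJ libraries did. At equal stage the difference was -0.37 ± 0.57 (SE; adjusted p = 0.724) at S2 and 2.51 ± 0.57 (SE; adjusted p = 0.0155) at S4. S4 minus S2 was 2.79 ± 0.57 (SE; adjusted p = 0.000798) in LJ and -0.09 ± 0.57 (SE; adjusted p = 0.918) in blade, and the difference of the changes was 2.88 ± 0.81 (SE; adjusted p = 0.03). The S4 call was lost without blade S4 replicate 2 (adjusted p = 0.17) or LJ S4 replicate 2 (0.101), and the call on the difference was lost when 5 of the 8 libraries concerned were left out in turn, while the rise in LJ was called in all 12 alternatives.

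OS03G0237250, an ID in the list of leaf angle genes whose symbol RefSeq places on another chromosome and which is therefore not named, was higher in LJ at every stage. The LJ libraries gave 9.66 and 11.5 FPKM at S1, 8.16 and 8.69 at S2, 20.1 and 21.1 at S3, 29.6 and 59.8 at S4 and 37.7 and 29.1 at S5. In blade they gave 4.94 and 4.44 FPKM at S1, 5.91 and 5.801 at S2, 5.53 and 4.91 at S3, 1.72 and 0.145 at S4 and 0 and 0 at S5. The LJ libraries lay above the blade libraries at each stage without overlap, and both blade S5 libraries were listed at 0. Its LJ minus blade difference was 0.46 ± 0.36 (SE; adjusted p = 0.416) at S2, 1.798 ± 0.36 (SE; adjusted p = 0.00419) at S3 and 4.61 ± 0.36 (SE; adjusted p = 8.01e-06) at S4. It rose in LJ by 2.19 ± 0.36 (SE; adjusted p = 0.000131) and changed in blade by -1.96 ± 0.36 (SE; adjusted p = 0.000481) at S4 relative to S2.

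Wall genes came next. CESA8 (OS07G0208500) codes for a cellulose synthase subunit of the kind that works in expanding cells with primary walls. Its values in LJ were 4.85 and 4.64 FPKM at S1, 9.37 and 6.24 at S2, 51.4 and 43.2 at S3, 16.3 and 31.7 at S4 and 15.1 and 22.9 at S5. In blade its values were 24.9 and 33.4 FPKM at S1, 33.5 and 29.9 at S2, 54.6 and 79.2 at S3, 9.199 and 13.7 at S4 and 3.59 and 8.8001 at S5. LJ was below blade at S2 and S3 and above it at S4 without overlap, and on the log2 scale the group means lay closest at S3. The test gave LJ minus blade as -1.91 ± 0.39 (SE; adjusted p = 0.0034) at S2 and 0.96 ± 0.39 (SE; adjusted p = 0.183) at S4, the second without a call unless libraries were paired (adjusted p = 0.0221). CESA8 rose in LJ by 1.46 ± 0.39 (SE; adjusted p = 0.00544) and fell in blade, at -1.42 ± 0.39 (SE; adjusted p = 0.00861), and the difference of the changes was 2.87 ± 0.56 (SE; adjusted p = 0.00333). The rise was not called without LJ S4 replicate 2 (adjusted p = 0.0767) or LJ S2 replicate 2 (0.0525), nor the fall without blade S4 replicate 1 (0.0607) or after upper quartile scaling (0.0647) or quantile normalization (0.0735).

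EXPA4 (OS05G0477600) codes for an alpha-expansin and EXPB11 (OS02G0658800) for a beta-expansin, proteins that loosen cell walls during growth. EXPA4 stood at 15.1 and 27.4 FPKM at S1, 26.2 and 28.2 at S2, 124 and 75.9 at S3, 53.1 and 88.5 at S4 and 90.3 and 75.8 at S5 in LJ. In blade it stood at 33.6 and 64.7 FPKM at S1, 64.7 and 38.3 at S2, 67.9 and 76.3 at S3, 5.64 and 12.4 at S4 and 5.48 and 13.2 at S5. The groups overlapped at S3 alone, and at S4 and S5 the LJ libraries stayed high while the blade libraries were low. At S4 LJ exceeded blade by 2.88 ± 0.48 (SE; adjusted p = 0.00213), the change at S4 relative to S2 was 1.30 ± 0.48 (SE; adjusted p = 0.0297) in LJ and -2.43 ± 0.48 (SE; adjusted p = 0.000792) in blade, and the difference of the changes was 3.73 ± 0.68 (SE; adjusted p = 0.00212). The LJ rise was not called without LJ S4 replicate 2 (adjusted p = 0.193), LJ S2 replicate 1 (0.106) or LJ S2 replicate 2 (0.0778).

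EXPB11 (OS02G0658800) had a sharper peak. Its LJ libraries showed 2.42 and 2.13 FPKM at S1, 2.16 and 1.42 at S2, 80.9 and 94.3 at S3, 9.53 and 7.29 at S4 and 12.1 and 11.2 at S5. The blade libraries showed 79.6 and 143 FPKM at S1, 71.1 and 28.6 at S2, 43.5 and 100.2 at S3, 1.07 and 1.34 at S4 and 0.175 and 1.2999 at S5. LJ was highest at S3, the stage at which it overlapped with blade. LJ minus blade was -4.06 ± 0.46 (SE; adjusted p = 3.89e-05) at S2 and 2.09 ± 0.46 (SE; adjusted p = 0.0128) at S4, where the call was lost without blade S4 replicate 2 (adjusted p = 0.0601) or LJ S4 replicate 1 (0.0687). The changes at S4 relative to S2 were 1.76 ± 0.46 (SE; adjusted p = 0.00452) in LJ and -4.39 ± 0.46 (SE; adjusted p = 3.34e-06) in blade, with a difference of 6.15 ± 0.65 (SE; adjusted p = 3.97e-05).

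COMT1 (OS08G0157500) codes for a caffeic acid O-methyltransferase of lignin synthesis, which hardens walls that have stopped growing. LJ had 18.7 and 11.03 FPKM at S1, 16.6 and 5.703 at S2, 246 and 104 at S3, 109.8 and 400.2 at S4 and 55.9 and 48.2 at S5. Blade had 145 and 114 FPKM at S1, 340.2 and 105 at S2, 737 and 545 at S3, 171 and 659 at S4 and 34.8 and 28.1 at S5. It was low in LJ up to S2 and high in both tissues at S4, where the groups overlapped and replicate 2 was the higher library in both. LJ minus blade was -4.13 ± 0.74 (SE; adjusted p = 0.00139) at S2, -1.98 ± 0.74 (SE; adjusted p = 0.0809) at S3 and -0.67 ± 0.74 (SE; adjusted p = 0.703) at S4, and the S3 difference was called when libraries were paired (adjusted p = 0.00323). COMT1 rose in LJ by 4.28 ± 0.74 (SE; adjusted p = 0.000203), and in blade the change was 0.82 ± 0.74 (SE; adjusted p = 0.383). The difference of the changes, 3.46 ± 1.05 (SE; adjusted p = 0.0425), was called in 8 of 16 alternatives.

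SALT (OS01G0348900) codes for a mannose-binding lectin first known from salt-treated rice. In LJ it measured 4.33 and 2.27 FPKM at S1, 22.4 and 2.49 at S2, 108 and 76.9 at S3, 996 and 461 at S4 and 78.4 and 126 at S5. In blade it measured 29.4 and 12.4 FPKM at S1, 6.96 and 11.7 at S2, 13.5 and 5.77 at S3, 133 and 13.8 at S4 and 0.412 and 0.343 at S5. LJ was above blade at S3 and S4 without overlap, while the S2 libraries of both tissues overlapped and the LJ replicates of S2 and the blade replicates of S4 lay far apart. LJ minus blade was 3.22 ± 0.92 (SE; adjusted p = 0.0291) at S3 and 3.93 ± 0.92 (SE; adjusted p = 0.0183) at S4. It rose in LJ by 6.23 ± 0.92 (SE; adjusted p = 5.21e-05), the blade change was 2.15 ± 0.92 (SE; adjusted p = 0.0694), and the difference of the changes was 4.08 ± 1.31 (SE; adjusted p = 0.0534), called only when libraries were paired (adjusted p = 0.00574). The S3 call was lost without any 1 of the 4 libraries of S3 (adjusted p = 0.0782 to 0.131), and the S4 call without blade S4 replicate 2 (0.208) or LJ S4 replicate 1 (0.104).

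**Figure D4:**
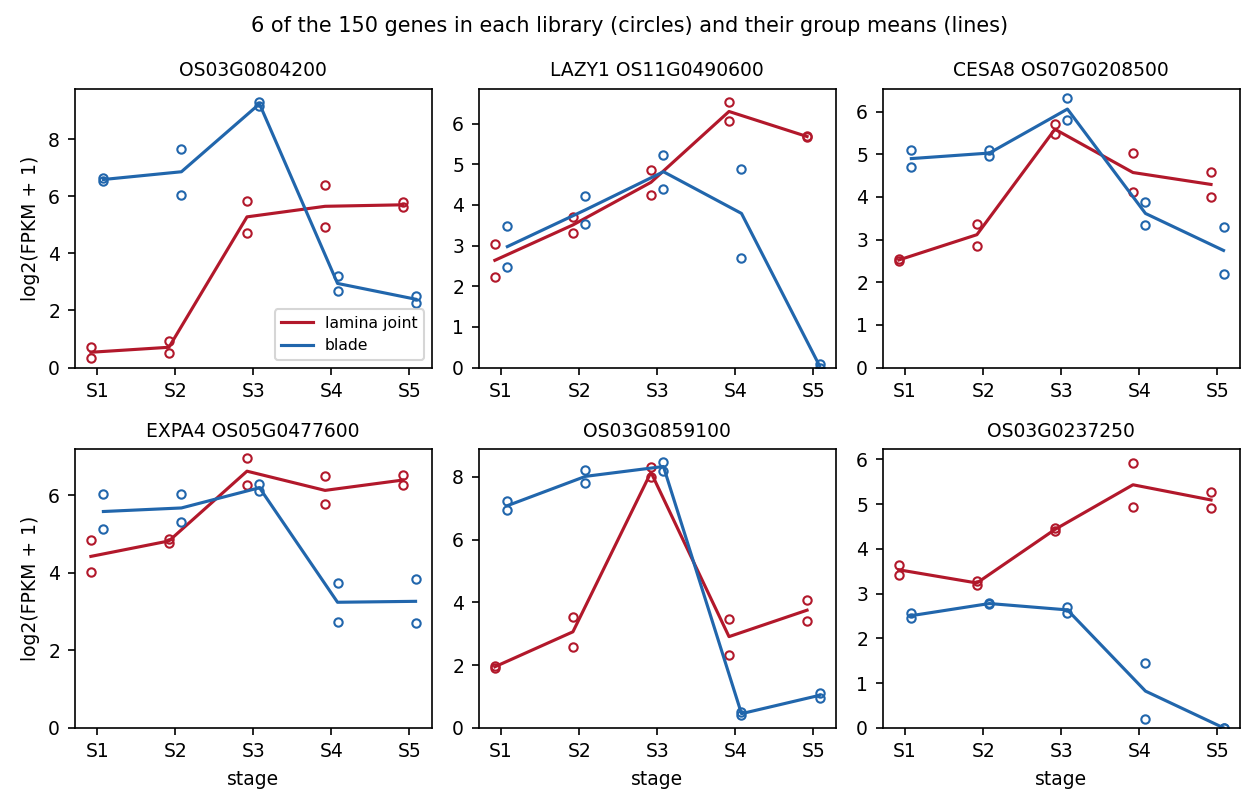
Level of 6 of the 150 genes on log2(FPKM + 1) by stage, with a circle for each library and lines through the group means; LJ and blade are set slightly left and right of each stage. LAZY1 is at 66.4 and 91.3 FPKM in LJ and 28.5 and 5.50 FPKM in blade at S4, and OS03G0859100 is high in LJ at S3 alone.

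Among genes without a name, OS10G0552600 had the highest score. LJ libraries gave 1.55 and 8.96 FPKM at S1, 11.9 and 55.7 at S2, 264 and 722 at S3, 959.7 and 329 at S4 and 81.3 and 169.5 at S5. Blade libraries gave 22.01 and 109 FPKM at S1, 168 and 70.2 at S2, 305 and 961 at S3, 67.8 and 21.1 at S4 and 0.429 and 0.771 at S5. The replicates of this gene lay far apart in most groups, and the S4 groups did not overlap. At S4 LJ exceeded blade by 3.85 ± 0.98 (SE; adjusted p = 0.0287), a call that was lost without blade S4 replicate 2 (adjusted p = 0.22) or LJ S4 replicate 1 (0.163) and after quantile normalization (0.0565). The difference of the changes was 5.87 ± 1.39 (SE; adjusted p = 0.0116), and it was not called without blade S2 replicate 1 (adjusted p = 0.0536) or LJ S2 replicate 1 (0.0599).

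The second highest score was that of OS03G0804200. In LJ it had 0.662 and 0.262 FPKM at S1, 0.418 and 0.886 at S2, 56.9 and 25.2 at S3, 29.1 and 83.2 at S4 and 48.3 and 54.3 at S5. In blade it had 99.1 and 92.3 FPKM at S1, 203 and 65.9 at S2, 638 and 578 at S3, 8.198 and 5.48 at S4 and 3.85 and 4.71 at S5. It was near 0 in LJ up to S2 and far below blade at S3, and LJ exceeded blade only at S4 and S5, without overlap at any stage. LJ minus blade was -6.16 ± 0.52 (SE; adjusted p = 4.32e-06) at S2, -3.96 ± 0.52 (SE; adjusted p = 0.000251) at S3 and 2.70 ± 0.52 (SE; adjusted p = 0.00565) at S4. The last call was lost without blade S4 replicate 2 (adjusted p = 0.0583) or LJ S4 replicate 2 (0.0682), whereas the calls at S2 and S3 held in all 12 alternatives.

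The largest difference of the changes was that of OS06G0148200, at 9.42 ± 0.77 (SE; adjusted p = 5.38e-06). Its LJ libraries read 0.824 and 2.35 FPKM at S1, 0.582 and 5.67 at S2, 211 and 141 at S3, 30.7 and 36.4 at S4 and 15.6 and 14.3 at S5. Its blade libraries read 143 and 199 FPKM at S1, 356 and 243 at S2, 689 and 1046 at S3, 4.18 and 2.99 at S4 and 1.43 and 3.79 at S5. Both tissues were highest at S3, and both were lower at S4, where blade was below LJ without overlap.

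OS03G0859100 had the largest fall in blade at S4 relative to S2. The LJ values were 2.78 and 2.94 FPKM at S1, 10.6 and 5.03 at S2, 317 and 252 at S3, 4.05 and 10.2 at S4 and 16.02 and 9.67 at S5. The blade values were 121 and 149.8 FPKM at S1, 298 and 224 at S2, 291 and 355 at S3, 0.417 and 0.320 at S4 and 1.18 and 0.933 at S5. The tissues overlapped at S3, and LJ kept a low level at S4 and S5 where blade was near 0. S4 minus S2 was -7.57 ± 0.38 (SE; adjusted p = 4.63e-09) in blade and -0.15 ± 0.38 (SE; adjusted p = 0.745) in LJ, so that the higher S4 level in LJ, 2.46 ± 0.38 (SE; adjusted p = 0.0013), came with no called rise of LJ between these stages. OS09G0376400 went further: at S4 it was listed at 0 and 0.254 FPKM in LJ and at 0.138 and 0.167 FPKM in blade, after 21.1 and 30.7 FPKM in LJ and 57.9 and 95.9 FPKM in blade at S3. It was present again at S5, with 13.7 and 6.55 FPKM in LJ and 1.14 and 0.475 FPKM in blade.

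A late rise in LJ, without a peak at S3, marked OS06G0653000. LJ held 16.1 and 12.9 FPKM at S1, 5.75 and 6.31 at S2, 4.48 and 4.31 at S3, 144 and 80.6 at S4 and 59.9 and 59.3 at S5. Blade held 2.45 and 4.61 FPKM at S1, 4.58 and 6.48 at S2, 1.66 and 1.77 at S3, 2.601 and 1.03 at S4 and 0.144 and 0.596 at S5. No difference was called at S2 or S3, although the S3 difference was called when libraries were paired (adjusted p = 0.00646), and at S4 both LJ libraries were far above both blade libraries. The S4 difference was 5.33 ± 0.34 (SE; adjusted p = 3.63e-06). OS03G0676300 took a similar course at a higher level. It had 69.2 and 145 FPKM at S1, 85.6 and 134 at S2, 88.9 and 127 at S3, 315 and 152 at S4 and 373 and 328 at S5 in LJ. It had 40.5 and 98.5 FPKM at S1, 71.6 and 65.03 at S2, 25.4 and 51.4 at S3, 19.5 and 5.75 at S4 and 16.4 and 21.3 at S5 in blade. Here the rise in LJ at S4 relative to S2 was not called, at 1.02 ± 0.57 (SE; adjusted p = 0.139), and the fall in blade was, at -2.56 ± 0.57 (SE; adjusted p = 0.00209).

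Some genes were highest at S4 in both tissues. OS01G0878900 had the largest LJ rise at S4 relative to S2, and its LJ values were 1.26 and 0.398 FPKM at S1, 1.94 and 2.52 at S2, 69.9 and 30.5 at S3, 950.3 and 484 at S4 and 8.46 and 16.3 at S5. Blade gave 90.8 and 89.8 FPKM at S1, 215 and 149 at S2, 416 and 438 at S3, 960.1 and 526 at S4 and 0.381 and 0.627 at S5. The groups overlapped at S4, and both tissues were low again at S5. S4 minus S2 was 7.72 ± 0.45 (SE; adjusted p = 2.19e-08) in LJ and 1.98 ± 0.45 (SE; adjusted p = 0.00227) in blade, with LJ minus blade at S4 of -0.07 ± 0.45 (SE; adjusted p = 0.97). OS06G0289900 and OS09G0537700 had larger blade changes, at 2.24 and 2.62, but neither was called (adjusted p = 0.0955 and 0.0599), and their S4 replicates lay far apart. OS09G0537700 had 99.2 and 437 FPKM in LJ and 115 and 845 FPKM in blade at S4. OS07G0682100 was highest at S4 in LJ but at S3 in blade, with 34.6 and 24.9 FPKM in blade S3 and 12.3 and 4.35 in blade S4. It rose in LJ, by 6.59 ± 0.67 (SE; adjusted p = 1.76e-06), with 103 and 186 FPKM in LJ S4, against 0.953 and 0.0704 FPKM in LJ S2. Its blade change was 0.82 ± 0.67 (SE; adjusted p = 0.334), and the difference of the changes was 5.77 ± 0.95 (SE; adjusted p = 0.00111).

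The most abundant of the 150 genes was OS02G0626100, with a mean of 651.8 FPKM. In LJ its libraries were at 35.9 and 39.7 FPKM at S1, 84.2 and 116 at S2, 1115 and 697 at S3, 1301 and 1451 at S4 and 565 and 571 at S5. In blade they were at 344 and 395 FPKM at S1, 1039 and 936 at S2, 1218 and 1068 at S3, 871 and 955 at S4 and 109 and 124 at S5. This level was high in both tissues at S3 and S4. LJ was lower at S2, at -3.30 ± 0.29 (SE; adjusted p = 5.09e-06), and no difference was called at S4, at 0.59 ± 0.29 (SE; adjusted p = 0.282). OS04G0450701, the second in abundance, was the gene that fell in LJ. It showed 73.02 and 101 FPKM at S1, 369 and 455 at S2, 1429 and 1578 at S3, 115 and 167 at S4 and 239 and 343 at S5 in LJ. It showed 248 and 447 FPKM at S1, 727 and 899.8 at S2, 511 and 849 at S3, 12.3 and 13.9 at S4 and 21.8 and 55.5 at S5 in blade. After its maximum at S3 in LJ it dropped in both tissues, by more in blade, and the difference of the changes was 4.29 ± 0.61 (SE; adjusted p = 0.000372).

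In some genes the LJ S3 libraries lay far apart. OS06G0317600 had 13.9 and 0.491 FPKM in LJ S3, OS09G0426800 had 23.5 and 1.32, and OS09G0542600 had 5.42 and 0.271, with replicate 1 the higher in each. Over the 150 genes LJ S3 replicate 1 lay a median of 0.47 above replicate 2, while over all tested genes the median was -0.03. In blade S3 the same genes had 493 and 366, 561 and 369, and 115 and 71.4 FPKM. They were lower in LJ at S3, at -6.50 ± 0.86 (SE; adjusted p = 0.000266), -5.92 ± 0.73 (SE; adjusted p = 0.000168) and -5.003 ± 0.58 (SE; adjusted p = 0.000103), and these calls held without either LJ S3 library. At the other end, OS05G0192100 was called in none of the 6 comparisons, with 10.1 and 27.0 FPKM in LJ S4 and 3.94 and 20.9 FPKM in blade S4.

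Genes of known pathways were counted in lists of names and IDs. For comparison, 12.4% of all tested genes were lower and 10.5% higher in LJ at S2, with 5.77% and 11.2% at S3 and 0.473% and 6.7% at S4. The difference of the changes was called higher in 11.2% and lower in 2.27% of all tested genes. Of 5 primary wall cellulose synthases, 1 (CESA8) was among the 150, and all 5 had the larger change in LJ than in blade by S4 (5 called higher, median 2.62). At S2, 3 of them were lower and 0 higher in LJ, and at S4, 2 were higher and 0 lower. By the score, CESA3 stood at place 313, CESA1 at 985, CESA5 at 2081 and CESA6 at 9936 of the 37829 IDs. CESA3 averaged 104 FPKM in LJ S4, against 48.5 FPKM in blade S4, and 11.3 FPKM in LJ S2, against 36.1 FPKM in blade S2. The 4 secondary wall genes, CESA4, CESA7, CESA9 and BC1, which build the thick walls of xylem and fibres, held none of the 150, and at S5 they summed to 0.549 and 2.08 FPKM in LJ and 0.223 and 0.596 FPKM in blade. All 4 were lower in LJ at S2, 0 were called either way at S3 and S4 (1 and 2 at an unadjusted p), and all 4 had the larger change in LJ (median 3.25).

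Of 10 leaf angle genes, 2 were among the 150, LAZY1 and OS03G0237250. At S3 and at S4, 6 of the 10 were higher in LJ, with 1 lower at S3 and 0 lower at S4, and 7 had the larger and 1 the smaller change in LJ. Of all tested genes 11.2% were higher and 5.77% lower at S3, and 6.7% higher and 0.473% lower at S4. The change in LJ was the larger in 11.2% of all tested genes and the smaller in 2.27%. LG1 stood at place 629 by the score. The lists of 12 brassinosteroid, 7 auxin, 6 gibberellin and strigolactone, and 3 clock genes held none of the 150. The difference of the changes was called higher in 0 of the 12 brassinosteroid genes (0 at an unadjusted p), 3 of the 7 auxin genes, 1 of the 6 gibberellin and strigolactone genes and 0 of the 3 clock genes (0 at an unadjusted p), and lower in 0 of each.

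By position, 14 pairs of the 150 genes were direct neighbours in the order of IDs, 28 genes in all. Over the 20 libraries the levels of these pairs correlated at 0.591 to 0.993 with a median of 0.983, as a description of libraries that share tissue and stage. In 10 of the 14 pairs one of the IDs does not end in 00, a kind of ID that 19 of the 150 genes have (12.7%, against 15.9% of all tested genes). EXPA4 and OS05G0477666 form such a pair (r = 0.971), and OS05G0477666 had 229 and 514 FPKM in LJ S4, against 42.9 and 64.8 FPKM in blade S4. EXPB11 and OS02G0658850 form another (r = 0.990), with 11.9 and 20.02 FPKM of OS02G0658850 in LJ S4, against 2.88 and 2.56 FPKM in blade S4. CESA8 (OS07G0208500) and OS07G0208566 are both among the 150 and have close IDs, but they are not direct neighbours and so not in this count. OS07G0208566 had 4.79 and 13.5 FPKM in LJ S4, against 3.09 and 4.90 FPKM in blade S4. No source used here states whether reads were counted by strand, so overlapping genes can share reads, and each such pair may count 1 signal under both IDs. The 150 genes lay on all 12 chromosomes, with the most on chromosome 1 (23, or 15.3%, against 14.3% of all tested genes), chromosome 3 (22, or 14.7%, against 13.4%) and chromosome 6 (19, or 12.7%, against 7.98%).

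Markers of other cell types moved with these comparisons. The 4 secondary wall genes summed to 5.33 and 5.50 FPKM in LJ S2, against 95.5 and 45.6 FPKM in blade S2. They summed to 159 and 71.4 FPKM in LJ S3, against 227 and 191 FPKM in blade S3, and to 51.7 and 125 FPKM in LJ S4, against 24.8 and 60.2 FPKM in blade S4. Libraries with more of these transcripts included those in which the 150 genes were higher, namely LJ S3 replicate 1, LJ S4 replicate 2 (replicate 1 minus replicate 2 had a median of -0.62 over the 150 genes) and blade S2 replicate 1. It was otherwise in blade S3 and blade S4. In blade S3, replicate 1 had the higher sum, and the 150 genes were lower there (median of replicate 1 minus replicate 2 -0.10, against -0.15 over all tested genes). In blade S4, replicate 2 had the higher sum, and the 150 genes were lower there (median of replicate 1 minus replicate 2 0.26, against 0.24 over all tested genes). The 7 photosynthetic genes summed to 2370 and 893 FPKM in LJ S2, against 15059 and 3560 FPKM in blade S2, and to 11010 and 37066 FPKM in LJ S4, against 18746 and 77946 FPKM in blade S4. At S4 relative to S2, 5 of the 7 rose in LJ and 5 in blade, where 28.4% and 14.6% of all tested genes did. At S4, 0 of the 7 were called higher or lower in LJ (0 at an unadjusted p). Of the 7, 4 are IDs listed as RBCS copies, whose places in gene order differ from RefSeq's by 2.64 to 6.27% and which did not pass the name check. The other 3, RCA, CAB1R and CAB2R, summed to 2118 and 732 FPKM in LJ S2, against 11896 and 1552 FPKM in blade S2, and to 2814 and 20205 FPKM in LJ S4, against 4723 and 32585 FPKM in blade S4. At S4 relative to S2, 1 of these 3 rose in LJ and 1 in blade. None of these 11 markers was at 0 in both libraries of any group, none is among the 150 genes, and their part in the results was not tested.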

How the data were processed

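RNA of LJ and blade pieces was sequenced in 20 libraries, 2 in each of 10 groups, with groups and replicate numbers taken from the labels. The authors deposited FPKM. Tools in the submitters' processing notes are Cufflinks 2.2.1, TopHat2 2.1.1, Trimmomatic 0.36 and CASAVA 1.8, with IRGSP-1.0 as the build. Read numbers cannot be had from FPKM, so depth is unknown and counting intervals are left out. Of 82632 features, 44803 with other IDs were left out.

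The genes, lists and comparisons were chosen with earlier results of these data known. From the FPKM, log2(FPKM + 1) was fitted with limma 3.58.1 (R 4.3.3) with a mean-variance trend, 10 groups, 10 residual and 4.09 prior degrees of freedom, over the 26403 genes that 2 or more libraries had at 1 FPKM or above. A call is a Benjamini-Hochberg adjusted p under 0.05 over these, ± is the SE of the fit, and the fit was tested on simulated data of 26403 genes. For each comparison simulated, 100 genes were changed by 1 and 100 by 2 on the log2 scale, and all others had no difference. Changes of 1 and 2 were called in 12% and 78% of changed genes for LJ minus blade at S3, and in 0% and 17% for the difference of the changes. In that setting a missing call says little about a log2 change of 1, and for the difference of the changes little about one of 2. Far more genes were called in the rice data, which loosens the adjusted threshold. The shares recovered may thus be too low for the rice data. Of the calls made on the simulated data, 6.25% at S3 and 0% for the difference fell on unchanged genes. The rule for named genes took the 12 highest scores, the 5 genes on either side of the last place and the 5 highest means. It also took the 3 largest and 3 smallest differences of each comparison and all listed or named genes. The remaining genes were named because they make up a small count or a pair of neighbouring or close IDs. Of 62 pairs of symbol and ID from background knowledge, 49 passed the RefSeq check (same chromosome and within 2% in gene order), 8 had a symbol not found there and 5 were contradicted; these 13 IDs stay in the list counts unnamed, and only 1 of 39387 RefSeq entries holds such an ID itself.

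Replicate numbers were checked for pairing. Across genes, replicate 1 minus replicate 2 in LJ correlated with the same difference in blade at 0.213 to 0.774 for equal stages. For unequal stages, pairs within a tissue included, the values were -0.442 to 0.204 (median -0.0099). Same-numbered libraries were thus read as pairs of 1 stage. This reading is weakest at S2, where the value of 0.213 hardly exceeded the highest of unequal stages. The main fit does not use these pairs. Fits with the pairs as a block are given for some genes where they change a call, and for the counts in the closing section. Other settings tried were quantile normalization, upper quartile scaling, no filter or one at 5 FPKM, 0.1 as pseudocount, a replicate block, a fit of only the groups compared, and leaving out single libraries (the lone library of a group is then assumed to vary like other groups).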

Additional observations from a re-analysis of the deposited data

Results flagged for a closer look

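The change at S4 relative to S2 differed between LJ and blade, in a test of the difference itself, in 139 of the 150 genes, against 11.2% of all tested genes, and in each of the 139 it was the larger in LJ. Among the named genes the log2 difference of the changes was 6.15 in EXPB11, 3.73 in EXPA4, 3.46 in COMT1, 2.88 in LAZY1 and 2.87 in CESA8. Among the IDs described for both tissues it was 9.42 in OS06G0148200, 8.86 in OS03G0804200, 7.53 in OS06G0317600, 7.47 in OS09G0426800, 7.41 in OS03G0859100, 6.69 in OS02G0658850 and 6.16 in OS09G0542600. It was 5.87 in OS10G0552600, 5.77 in OS07G0682100, 5.74 in OS01G0878900, 5.21 in OS06G0653000, 5.13 in OS04G0531100 and 4.69 in OS09G0376400. The lower values described were 4.29 in OS04G0450701, 4.15 in OS03G0237250, 3.89 in OS02G0626100, 3.58 in OS03G0676300, 3.48 in OS05G0477666 and 2.70 in OS08G0564700. The difference in COMT1 (OS08G0157500) was lost without any 1 of 4 libraries (blade S2 replicate 1, blade S4 replicate 1, LJ S2 replicate 2 and LJ S4 replicate 2, adjusted p = 0.133 to 0.17), and that in LAZY1 (OS11G0490600) without any 1 of 5 (0.0533 to 0.11).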

How the results depend on the processing

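No call on the 150 genes was reversed under any alternative, though many were lost. Each comparison kept its main direction wherever calls were made. For LJ minus blade at S4, the fit of only the groups compared made 0 calls in either direction. Of the calls made with all libraries, those kept in every alternative numbered 46 of 132 for LJ minus blade at S2, 12 of 57 at S3 and 0 of 81 at S4, 91 of 127 for S4 minus S2 in LJ, 73 of 106 in blade and 110 of 139 for the difference of the changes. Fitting only the groups compared gave 46 lower at S2, 3 higher and 18 lower at S3, 0 higher at S4 (87 at an unadjusted p under 0.05) and 0 higher in blade at S4 relative to S2 (1 at an unadjusted p). This fit has fewer libraries for the spread, and it does not share the spread with other groups. Over tested genes, replicate 1 minus replicate 2 had an SD of 0.793 in LJ S4 and 0.876 in blade S4. In the other groups the SD was 0.397 to 0.664. The fit of all libraries may thus understate the spread at S4. The replicate block of pairs gave 12 higher at S3 and changed no other count by over 1.5 times. It called more genes in LJ against blade, among the 150 and among all tested genes. In that fit 136 were lower at S2 (against 21.3% of all tested genes) and 74 lower at S3 (against 13.1%). At S4, 106 were higher (against 17.1%), and for the difference of the changes 148 were (against 22.9%). With a pseudocount of 0.1, 2 genes fell in LJ, and 7 rose in blade after upper quartile scaling and 7 after quantile normalization; the cause was not tested. With single libraries of the groups compared left out, the counts were 104 to 125 lower at S2, 1 to 2 higher and 19 to 45 lower at S3, 37 to 76 higher at S4, 99 to 126 higher and 0 to 2 lower in LJ, 1 to 9 higher and 87 to 103 lower in blade, and 127 to 143 for the difference. Leaving out a library of another group gave 129 to 133, 5 to 9, 44 to 60, 75 to 86, 122 to 128, 100 to 103 and 138 to 139 for the larger of these counts. The choice of genes depends on the rule: 91 of the 150 were chosen again with a pseudocount of 0.1 and 66 by the sum of both changes, against 147 after upper quartile scaling, 141 after quantile normalization and 132 to 140 without any 1 library of S1 or S5. Scaling moved all genes: the median of LJ minus blade at S4 was 0.23 as deposited, 0.06 after upper quartile scaling and -0.06 after quantile normalization, and that of the difference of the changes was 0.27, 0.06 and -0.18. Among all called genes the share called higher was 65.9%, 55.3% and 54.8% at S3, 30.8%, 46.8% and 52.4% for the blade change, 83.1%, 70.3% and 45.4% for the difference, and 45.8%, 51.4% and 60.0% at S2. Over the 150 genes the median at S4 was 1.56, 1.44 and 1.31, and that of the difference 4.35, 4.11 and 3.95. Depth is not known from FPKM, so what it limits cannot be stated.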
